A study of Mus musculus with 3 samples.

Results

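Cftr encodes the cystic fibrosis transmembrane conductance regulator, an ATP-gated chloride and bicarbonate channel of epithelia. In 3 treated mice, 1 amplicon library of lung DNA each was read over 40 bases that hold the stop codon of the G542X allele. All alleles of the 3 tables were used, so the locus is 1 gene of 1 in the series and its 385 distinct alleles are all of those listed. The mice are labelled B6-Tg(CFTRG542X)Cwr. They were dosed through the trachea with lipid nanoparticles of the lipid CHCha-10 carrying a cargo named ABE/A9, and lungs were taken 3 days later. The labels do not explain A9 in that name, and it is used below only for a base position. It was not established which species, mouse or human, the window sequence comes from. No untreated lung was analysed here. Whole lung DNA holds all cell types of the tissue, so a share of reads is a share of amplified copies, and which cells carried a change was not measured.

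The glycine lost in G542X lies in the first nucleotide-binding domain of the channel. There its codon GGA is TGA, which ends translation early, and the RNA of such alleles is prone to nonsense-mediated decay. An adenine base editor pairs a nicking Cas9 with an adenosine deaminase and changes A to inosine, which is read as G, on the strand displaced by the guide. Acting on the A of TGA it would give the tryptophan codon TGG. Acting on the A opposite the T of TGA it would give the arginine codon CGA. Glycine needs T to G, which is not among the changes that such an editor makes.

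The sequences are shown first because the whole result turns on which strand is read. The window as deposited (window), with the codon in capitals, and the same strand after the change described below (changed window) were:
window: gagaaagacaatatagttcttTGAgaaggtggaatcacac
changed window: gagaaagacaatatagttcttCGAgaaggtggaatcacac
The guide strand is here the reverse complement of the 20-base guide listed for these libraries, numbered 1 to 20 from its 5′ end. The following run gives bases 1 to 20 and the next 3, with the 8 adenines of the protospacer in capitals, and then the same run after the change with the changed base in capitals:
guide strand: AccttctcAAAgAActAtAttgt
changed guide strand: accttctcGaagaactatattgt
The 3 bases after base 20, where a Cas9 looks for its PAM, are TGT at numbers 21 to 23. On the listed strand the 3 bases after the same stretch are GGA. Neither is NGG, the PAM of the common Streptococcus pyogenes Cas9, and the labels do not name the Cas9 variant used.

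The stop codon takes bases 7 to 9 of the guide strand, and adenine 9 lies opposite the T of TGA. A-to-G at adenine 9 is written A9G and corresponds to T22C in the window. Of the 8 protospacer adenines, A9G is the only one that would turn the stop codon into a sense codon. At 4 others the change would be silent, namely adenine 1 (glycine 544), adenine 10 (leucine 541), adenine 13 (valine 540) and adenine 19 (asparagine 538). At the remaining 3 it would replace a residue: leucine 541 by proline at adenine 11, valine 540 by alanine at adenine 14 and isoleucine 539 by threonine at adenine 17. The window holds 1 further guide-strand adenine, numbered -5, outside the protospacer.

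The libraries held 40496, 42415 and 43193 reads in mice 1, 2 and 3. A count of 0, taken to allow 3 reads, then allows a share of up to 0.00741%, 0.00707% and 0.00695%. No molecular identifiers were mentioned, so intervals and tests on reads cover counting error only. The library of mouse 2 stood apart in A9G from those of mouse 1 and mouse 3 (Fisher's exact test on reads, two-sided, adjusted p = 3.54e-05 for each), while the libraries of mice 1 and 3 did not differ (p = 0.977). Over all alleles, a chi-square test found no pair of libraries to differ (lowest p = 0.184). It was spread over 42 to 45 allele classes per pair, so it could miss a difference in A9G alone. It therefore does not show that the libraries are alike. With 3 mice, the smallest p of the exact two-sided sign-flip permutation test used below is 0.25, so no comparison over mice could pass 0.05.

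Adenine 9 was changed on about 1 in 16 reads and the other adenines of the protospacer had means of at most 0.0229% of reads. Mouse 1 held 2446 A9G reads (6.04%, exact Clopper-Pearson 95% interval 5.81 to 6.28), mouse 2 held 2867 (6.76%, interval 6.52 to 7.002) and mouse 3 held 2612 (6.05%, interval 5.82 to 6.28). Over the 3 mice A9G averaged 6.28% ± 0.41 (SD, n = 3), and 6.04% without mouse 2. Mouse 2 was the highest, and the intervals of mice 1 and 3 overlap almost wholly. Of the 120 possible single-base substitutions of the window, A9G alone passed 0.2% of reads in every mouse (0.833% of those tested). Reads with A9G made up 80.6% ± 1.02 of all reads with any change (SD, n = 3), and 98.4% ± 0.11 of reads with A-to-G at any of the 8 adenines. G was the base on 99.7% ± 0.11 of the reads changed at adenine 9. A9G was known to be high when it was chosen for description, so these shares describe it and no test is attached to them.

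The neighbouring adenines were compared next, because an editor that works on a stretch of displaced strand can change several of them. Adenine 10, directly beside adenine 9, carried A-to-G on 7, 6 and 8 reads in mice 1, 2 and 3. That is 0.0167% ± 0.0023, and A9G exceeded A10G by 6.27 ± 0.42 percentage points. The mean A-to-G share of the 7 other protospacer adenines was 0.0155%, 0.0165% and 0.0149% in mice 1, 2 and 3. A9G was 389, 409.6 and 406 times that mean. The difference was 6.27 ± 0.41 points. Since A9G was chosen as the high position, these gaps are a description too.

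The adenines whose change would be silent came to 68 A-to-G reads over the 3 mice at 4 positions. A1G was read 10, 7 and 8 times, A13G 5, 2 and 3 times, and A19G 2, 6 and 4 times. The adenines whose change would replace a residue came to 70 reads at 3 positions. A11G, leucine to proline, was read 8, 13 and 7 times, which is 0.0222% ± 0.0075. A14G, valine to alanine, was read 8, 11 and 10 times (0.0229% ± 0.0031), and A17G, isoleucine to threonine, 4, 4 and 5 times (0.0103% ± 0.0011). Per adenine the shares were 0.0135% ± 0.0012 for the silent class and 0.0185% ± 0.0031 for the residue-changing class. In the order of mean level, A9G was followed by A14G, A11G, A1G, A10G, A17G, A19G and A13G. Apart from the step below A9G, only the step from A10G to A17G (0.0064 ± 0.0014 points, higher in 3 of 3 mice) was larger than the SD of the difference. The adenine outside the protospacer, A-5G, was read 6, 6 and 8 times (0.0158% ± 0.0024), within the range of those inside.

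**Figure D1:**
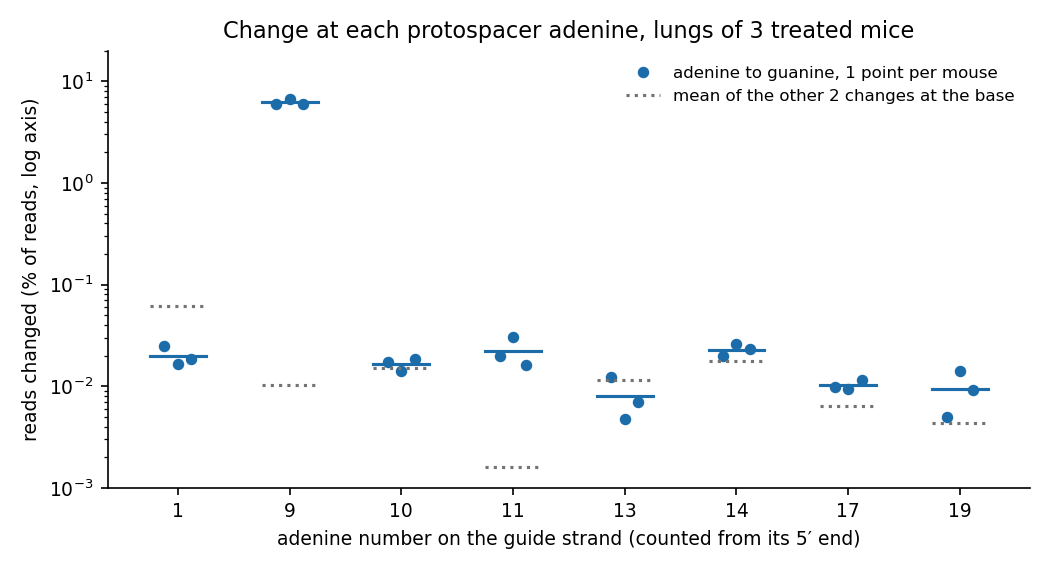
Share of reads with adenine read as guanine at each of the 8 protospacer adenines (points, 1 per mouse; solid line, mean of 3 mice) on a log axis in percent of reads, with the mean of the other 2 changes at the same base as a dotted line. Adenine 9 stands at 6.28%, and the 7 others have means between 0.0080% and 0.0229%.

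In the absence of untreated lung, each adenine was set against its own changes to C and T. Over the 7 adenines A-to-G lay 0.0013 ± 0.0010 points below the mean of A-to-C and A-to-T (exact sign-flip permutation test, p = 0.25). The sign turned when adenine 1 was left out. A1C was read on 36, 43 and 42 reads (0.0958% ± 0.0064), the highest share of any substitution other than A9G. It is silent, turning the glycine 544 codon GGT into GGG. Without adenine 1, A-to-G lay 0.0055 points above the other changes, at 0.0149% against 0.0094% (SD of the difference 7.8e-05, n = 3). Adenine 11 had the largest excess, with 28 A-to-G reads against 4 reads of A-to-C or A-to-T over all mice. The difference there was 0.0206 ± 0.0067 points (SD, n = 3). Adenine 11 was singled out for this difference, which is therefore given with no test. A-to-G lay above the other changes in 3 of 3 mice at adenines 11, 14, 17 and 19. It did so in 2 mice at adenine 10 and in 0 at adenines 1 and 13. By class, the mean of A-to-C and A-to-T was 0.0233% ± 0.0011 at the silent adenines, adenine 1 included. At the residue-changing adenines it was 0.0086% ± 0.0024. The A-to-G shares of these classes were 0.0135% and 0.0185%, and the classes were not tested. For scale, A-to-G at the 16 adenines of the listed strand averaged 0.0163% ± 0.0009.

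Other A-to-G changes were rare both on reads with A9G and on reads without it, and a difference between them was not detectable at this depth. At least 1 of the 7 other adenines was changed on 2 of 2446, 4 of 2867 and 3 of 2612 A9G reads in mice 1, 2 and 3. On the other reads the share was 42 of 38050, 43 of 39548 and 42 of 40581. The means were 0.112% ± 0.029 and 0.108% ± 0.004 (SD, n = 3). None of the 3 tests passed (0%, and 0 at an unadjusted p under 0.05; two-sided Fisher's exact test, p of 1, 0.558 and 0.752, adjusted p = 1 each), and the sign of the mean difference turned when mouse 2 was left out, from 0.0045 to -0.0086 points, while without mouse 1 it was 0.0211 points. Over all mice the share was on 9 of 7925 A9G reads, with an exact 95% interval of 0.0519% to 0.215%, so a share well above that of the other reads is within the counting error. A10G, A13G and A19G were each on 0 of the 7925 A9G reads, which allows up to 0.0379% of them by the same 3 reads. A11G was on 2 of these reads, A14G and A17G on 3 each, and A1G on 1. Of the 21 tests of single adenines, 1 had an unadjusted p under 0.05, A17G in mouse 2 (2 of 2867 reads against 2 of 39548, Fisher's exact p = 0.0250, adjusted p = 0.525). Double conversion of adenine 9 with its neighbour adenine 10 was thus not detectable at this depth.

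Cytosines of the guide strand were examined because adenine base editors are known to deaminate some cytosines at a low rate. The 5 protospacer cytosines lie at numbers 2, 3, 6, 8 and 15, shown in capitals in the run:
cytosines: aCCttCtCaaagaaCtatattgt
Cytosine 6, flanked by T on both sides, is the position for which such side activity is best known. C6T was read on 1 read in mouse 1, 1 in mouse 2 and 7 in mouse 3 (0.0070% ± 0.0080, SD, n = 3). The count of mouse 3 stood above the other 2. The other protospacer cytosines had C2T on 1, 3 and 7 reads, C3T on 4, 2 and 3, C8T on 8, 4 and 5, and C15T on 1, 1 and 2. Their mean was 0.0081% ± 0.0020, and C6T lay 0.0011 ± 0.0066 points below it (exact sign-flip permutation test, p = 1). Without mouse 1 the sign turned to 0.0014 points above, and without mouse 2 it was 9.67e-05 above. Without mouse 3 the difference was -0.0049 points. The 5 cytosines outside the protospacer averaged 0.0102% ± 0.0042. On A9G reads any C-to-T at the 5 protospacer cytosines was read 0, 2 and 3 times in mice 1, 2 and 3, a mean of 0.0615% ± 0.0579 against 0.0380% ± 0.0145 on the other reads. That difference of 0.0236 points was 0.0551 without mouse 1, 0.0118 without mouse 2 and 0.0038 without mouse 3. None of 18 Fisher's exact tests of single cytosines and of their sum passed (0%, and 0 at an unadjusted p under 0.05; lowest adjusted p = 0.786). C-to-T beyond the level of the surrounding cytosines was not detectable at this depth. C-to-A was the more frequent change of these bases, at 0.0471% ± 0.0026 per protospacer cytosine and 0.0618% ± 0.0076 outside.

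At the protein level, arginine was read at the stop codon on 2444, 2863 and 2609 reads in mice 1, 2 and 3. That is 6.04% (95% interval 5.81 to 6.27), 6.75% (6.51 to 6.99) and 6.04% (5.82 to 6.27), with a mean of 6.28% ± 0.41 (SD, n = 3). The codon CGA made up 7907 of the 7916 arginine reads over all mice. The other 9 were AGA on 4 reads, CGC and CGG on 2 each, and CGT on 1. Conversely, 13 of the 7925 A9G reads did not count as arginine. Of these, 6 read the leucine codon CTA, 1 the glutamine codon CAA, and 6 were reads with a deletion.

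Glycine, the residue of the wild-type protein, was read on 8, 6 and 8 reads, all as GGA, or 0.0175% ± 0.0029. There were 305.5, 477 and 326 arginine reads for each glycine read. Stop codons made up 93.6% ± 0.41, nearly all TGA, with TAA on 8, 4 and 4 reads. Leucine was the next most frequent sense residue after arginine, on 17, 24 and 26 reads (0.0529% ± 0.0096). Tryptophan, which A-to-G on the listed strand would give, was read on 8, 7 and 4 reads (0.0152% ± 0.0054). Cysteine was on 5, 4 and 9, serine on 1, 2 and 0, phenylalanine on 1 read of mouse 2 and glutamine on 1 read of mouse 3. Arginine made up 98.4% ± 0.16 of all sense residues at this codon. The protein encoded by the changed window is therefore G542R relative to the wild type, written X542R relative to the allele of these mice.

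**Figure D2:**
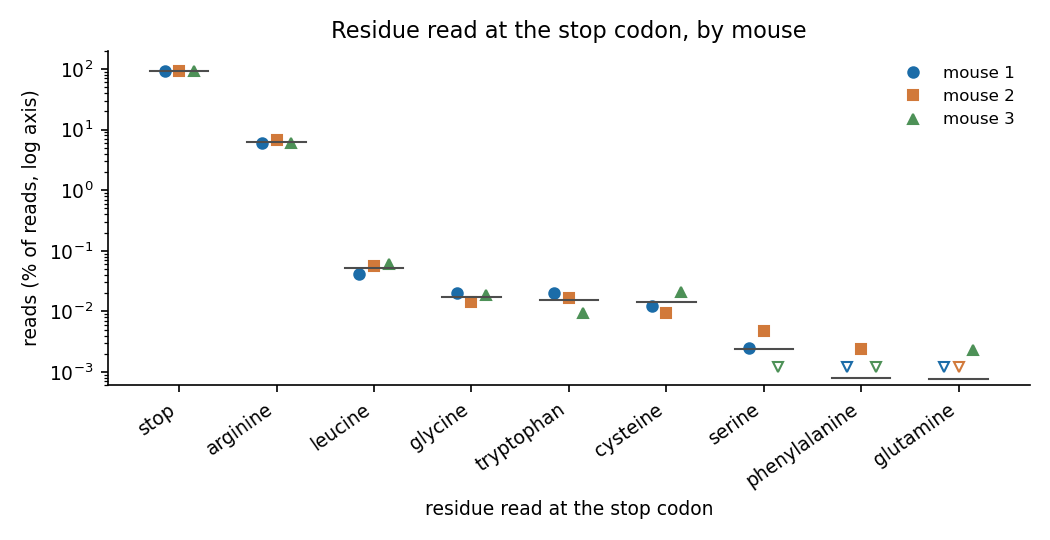
Share of reads with each residue at the stop codon, in percent of reads on a log axis, with 1 symbol per mouse and the mean as a line; open triangles mark 0 reads in a mouse. Stop and arginine hold nearly all reads at 93.6% and 6.28%, and glycine stands at 0.0175%.

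The other 12 whole codons, 535 to 541 and 543 to 547, encode in order glutamate, lysine, aspartate, asparagine, isoleucine, valine and leucine, then glutamate, glycine, glycine, isoleucine and threonine. The most frequent residue change of each was far below X542R, and the order given here is among these leading changes only. D537Y, aspartate to tyrosine, led with 41, 34 and 40 reads (0.0913% ± 0.0106). It was followed by G544V on 31, 19 and 29 reads (0.0628% ± 0.0163) and G545V on 24, 24 and 23 (0.0564% ± 0.0030). New stop codons were led by E535X on 27, 21 and 20 reads (0.0542% ± 0.0110) and E543X on 20, 18 and 25 (0.0499% ± 0.0077). T547A was read on 20, 18 and 17 reads (0.0437% ± 0.0051). The leading changes of the remaining 6 codons were rarer, from K536R at 0.0142% to V540G at 0.0246%, with N538I, I539L, L541I and I546S between them. At valine 540, V540G with 31 reads and A14G, which gives alanine, with 29 differed by less than the SD between mice.

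Coding changes elsewhere in the window were counted separately on arginine reads and on the other reads. A residue was replaced on 28, 36 and 33 arginine reads, 1.22% ± 0.07, against 0.957% ± 0.055 of the other reads. The difference was 0.266 ± 0.025 points and was positive in 3 of 3 mice, but the 3 tests did not pass (two-sided Fisher's exact test, p of 0.226, 0.140 and 0.227, lowest adjusted p = 0.681; exact sign-flip permutation test, p = 0.25). With the reads of all mice summed, which ignores the mouse as the unit, the difference was 0.267 points (Fisher's exact test, adjusted p = 0.0735). The values rested on rare alleles. With alleles of at least 2 reads the difference turned to -0.376 points and with at least 10 reads to -0.356, with lowest adjusted Fisher's exact p of 0.0029 and 5.08e-04. A second change is on fewer reads where the first is already in a minority, so a minimum size drops it there first. How much this moved the difference was not measured. By codon, the mean share of residue changes was higher on arginine reads at 8 of the 12 codons and lower at 4. Aspartate 537 was changed on 18 arginine reads (0.227% ± 0.073 against 0.154% ± 0.007), glutamate 535 on 11 (0.137% ± 0.032 against 0.0813% ± 0.0003) and lysine 536 on 10 (0.129% ± 0.051 against 0.0535% ± 0.0149). The share was lower on arginine reads at asparagine 538 (0.0506% against 0.0752%), valine 540 (0.0625% against 0.0703%), leucine 541 (0.0369% against 0.0718%) and isoleucine 546 (0.0645% against 0.0743%). These codons were singled out after their values were seen and were not tested.

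Silent changes were on 12, 14 and 9 arginine reads (0.442% ± 0.084 against 0.426% ± 0.017), with a difference of 0.016 ± 0.080 points (exact sign-flip permutation test, p = 0.75). That difference was negative without mouse 1 (-0.0152 points) and under both minimum allele sizes (-0.136 and -0.126 points). A new stop codon elsewhere was on 4, 3 and 3 arginine reads (0.128% ± 0.031 against 0.142% ± 0.028), lower in 3 of 3 mice by 0.0140 ± 0.0042 points (exact sign-flip permutation test, p = 0.25). The difference was -0.0828 points with alleles of at least 2 reads and -0.0721 with at least 10. None of the 9 tests of the 3 classes passed (0%, and 0 at an unadjusted p under 0.05; Fisher's exact test, adjusted p from 0.681 to 1). On 98.7% ± 0.05 of arginine reads the other 12 codons encoded the listed residues, and on 98.2% ± 0.21 no other base was changed.

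**Figure D3:**
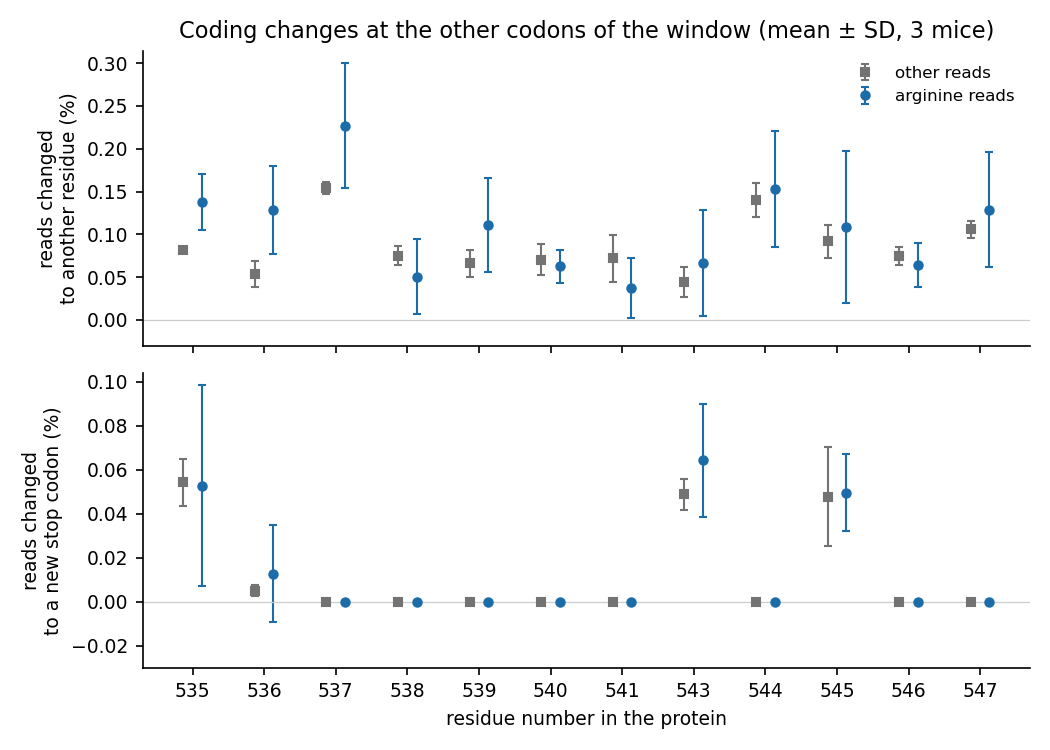
Share of reads in which each codon other than the stop codon encoded another residue (upper panel) or a new stop (lower panel), in percent, for arginine reads (blue circles) and the other reads (grey squares), mean ± SD over 3 mice. Residue changes at codon 537 stand at 0.227% of arginine reads and 0.154% of the others, and new stop codons occur at codons 535, 536, 543 and 545 in both classes of read.

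The reading frame of the window was then followed through each read. It held no stop codon on 2478, 2905 and 2656 reads, or 6.37% ± 0.41 (SD, n = 3). Arginine accounted for 2440, 2860 and 2606 of these reads, 98.3% ± 0.20. Another sense residue at the stop codon accounted for 37, 43 and 47 reads (0.101% ± 0.009). A deletion in frame accounted for 1, 2 and 3 reads (0.0047% ± 0.0022).

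The 6 reads whose in-frame deletion left no stop codon held 5 alleles, which are shown on the guide strand because each touches the stop codon. A further deletion of 9 bases, on 1 read of mouse 2, removed bases 20 to 28, as aligned, and kept the stop codon. Capitals mark the bases that the deletion joined, as aligned.
mouse 1, 21 bases removed, 1 read: gtgTTatattgtctttctc
mouse 2, 27 bases removed, 1 read: gtgtgACtttctc
mouse 2, 9 bases removed, 1 read: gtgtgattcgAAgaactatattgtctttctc
mouse 3, 18 bases removed, 2 reads: gtgtgaTTatattgtctttctc
mouse 3, 18 bases removed, 1 read: GAagaactatattgtctttctc
They touched between 4 and 10 codons. As aligned, the allele with 9 bases removed lost bases 2 to 10 and also carried C-1G, next to the protospacer. The same read arises from removal of bases -1 to 8 together with A9G. Which of these took place cannot be told from the read.

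Substitutions along the guide strand were compared between the protospacer, the 10 bases beyond it on the PAM side and the 10 bases before it. Leaving out adenine 9, any substitution was read per base on 0.0447% ± 0.0003 of reads on the PAM side, 0.0446% ± 0.0014 in the protospacer and 0.0522% ± 0.0011 on the far side (SD, n = 3). The PAM side and the protospacer differed by 1.40e-04 ± 0.0016 points per base, higher in 1 of 3 mice (exact sign-flip permutation test, p = 1). Without G-to-T and C-to-A the sign of that difference turned, to -0.0064 points, and it was also negative without mouse 1 (-7.52e-04). Both lay below the far side in 3 of 3 mice, by 0.0074 ± 0.0012 and 0.0076 ± 0.0005 points (exact sign-flip permutation test, p = 0.25 each). Without G-to-T and C-to-A the protospacer lay 0.0014 ± 0.0013 points below the far side (a difference of -0.0014, exact sign-flip permutation test, p = 0.5). The 3 bases TGT at numbers 21 to 23 were changed on 11, 13 and 16 reads, 13, 16 and 11 reads, and 15, 21 and 22 reads. Base 24, just beyond them, had the highest share of the PAM side, on 46, 39 and 48 reads (0.106% ± 0.012). It is the cytosine whose change to A gives D537Y.

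**Figure D4:**
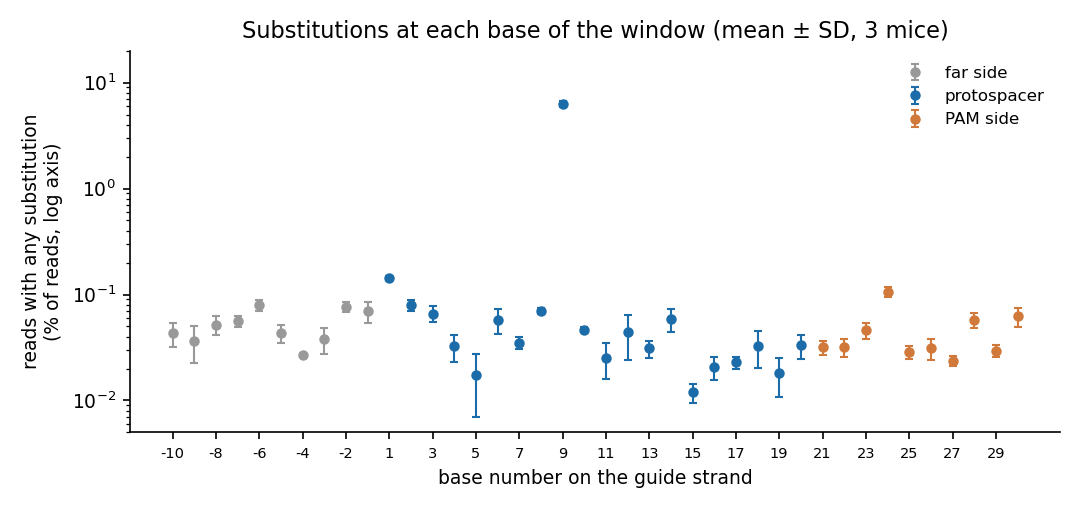
Share of reads with any substitution at each base, numbered on the guide strand, in percent of reads on a log axis (mean ± SD of 3 mice), coloured by stretch. Adenine 9 stands at 6.30%, adenine 1 at 0.144% and base 24 on the PAM side at 0.106%, with all other bases below these.

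Deletions were placed relative to the nick. A nicking Cas9 cuts the strand that pairs with the guide, 3 bases from the PAM, which here falls between bases 17 and 18 of the guide strand. The nicking form was assumed, since the labels give only ABE. Deletions were on 12, 18 and 20 reads (0.0395% ± 0.0087, SD, n = 3). They separated into 26 reads with 1 or 2 bases removed and 24 reads with 7 to 43 bases removed. Of the 26 short deletions 2 touched the nick, both aligned as loss of bases 16 and 17. These 2 could equally lie elsewhere in the repeat TATAT of bases 16 to 20. The most frequent short deletion was of 1 base in the run of adenines 9 to 11, aligned at base 10, on 8 reads in 3 mice. Which of the 3 adenines was lost cannot be told.

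Of the 24 long-deletion reads, 10 reached the nick (2, 5 and 3 in mice 1, 2 and 3), 12 lay on the side of adenine 9 and 2 on the PAM side. As aligned, adenine 9 was removed on 17 of the 24. Of the 7 that kept it, 6 carried A9G (2, 4 and 0 in mice 1, 2 and 3) and 1, in mouse 2, was unchanged there. The mouse 2 deletion of bases 2 to 10 is among the 17, though its read also arises with adenine 9 kept and read as G. Conversely, the mouse 2 deletion of bases -2 to 8 is among the 6 with A9G. Its read also arises with adenine 9 removed and cytosine -2 kept and read as G. These counts were singled out after they were seen and were not tested. The base covered by the most long deletions was number 8, on 18 reads, while bases 17 and 18 beside the nick were each covered on 10. The window ends at -12.5 bases from the nick on the PAM side and at 26.5 on the side of adenine 9. The counts by side and the cover per base therefore had unequal room, and no preference for a side or base can be read from them. Of the 10 that reached the nick, 8 also removed adenine 9. Of the 5 reads whose deletion, as aligned, neither reached the nick nor removed adenine 9, mouse 1 held 1 and mouse 2 held 4. The only insertion was of 7 bases on 1 read of mouse 3. It lay between bases 17 and 18 and copied the 7 bases beside it, so that its place could equally be at the other end of the copy.

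**Figure D5:**
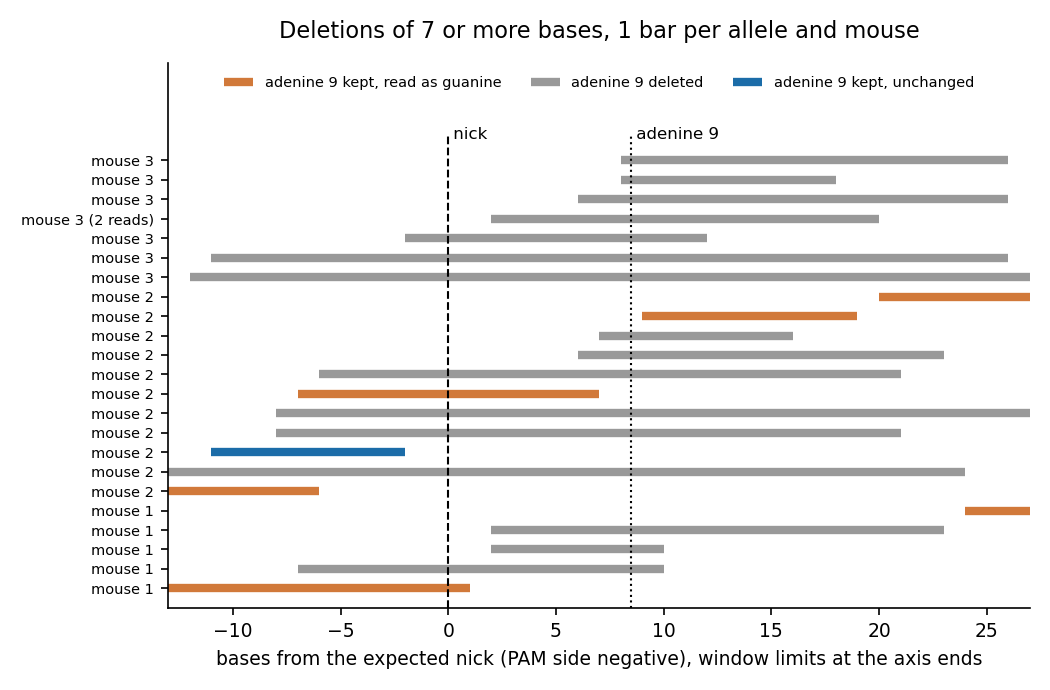
Extent of each deletion of 7 or more bases, in bases from the expected nick with the PAM side negative, 1 bar per allele and mouse, coloured by the state of adenine 9; bars that reach an axis end run to or past the window's limit. The dashed line is the nick, reached on 10 of 24 reads, and the dotted line is adenine 9, removed on 17 as aligned.

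Of the 385 distinct alleles, 77 carried A9G and no deletion, 38, 39 and 37 of them in mice 1, 2 and 3. Of these 77, 9 were found in all mice and 44 rested on 1 read over all mice. A9G alone held 2400, 2805 and 2565 reads (6.16% ± 0.39). The next 5 by mean share had 5 to 8 reads over the 3 mice. They added A1C (silent, 4, 4 and 0 reads), C28A (glutamate 535 to aspartate, 2, 3 and 2), C24A (aspartate 537 to tyrosine, 1, 4 and 2), G-6T (silent, 3, 1 and 2) and C8A (leucine in place of arginine at the stop codon, 1, 0 and 4). None of these second changes was A-to-G. The following run shows A9G with C8A on the whole window, guide strand, with both in capitals:
A9G and C8A: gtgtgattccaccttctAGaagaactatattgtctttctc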

How the data were processed

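Amplicon libraries of lung DNA from 3 mice of a single treated group were analysed; the library names number the mice and the titles number the lungs. A PCR with Q5 polymerase made the amplicons and another PCR added barcodes, per the labels' protocols. The deposited values are counts of reads per aligned allele of the window, and the deposited percent is each allele's count over its table's total, which was recomputed without a difference above 1e-09 points. Neither aligner nor build could be named: "not given in the sources used here" holds for both. Without a genome, the chromosomal position of the window is not reported. Reads with an insertion (1 read) entered totals only; N (5 reads) and deleted bases counted as unchanged at that base, and reads with an insertion or deletion were left out of residue counts but kept in the total. Bases were numbered on the reverse complement of the listed guide sequence. A deletion touched the nick if any equivalent placement did.

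Shares are means ± SD over mice, with exact Clopper-Pearson 95% intervals. Fisher's exact tests on reads were adjusted by Benjamini-Hochberg within each family, and mice were compared by exact sign-flip permutation tests. Named were every protospacer adenine and cytosine, the 3 bases after the protospacer, substitutions above 0.2% in all mice, each codon's leading residue change, the 6 leading A9G alleles and every in-frame deletion that removed the stop codon; other items were chosen after their values were seen. The adenines, codons and tests were chosen with earlier results of these data known. Counting was tested on simulated data, where 21 of 21 read numbers in 3 libraries were recovered. Their reads were already aligned. Alternatives changed the smallest allele kept, the denominator, the weight of mice, the changes counted and the mice included. Python 3.11.15, numpy 2.4.6, scipy 1.17.1, pandas 2.3.3 and matplotlib 3.10.9 were used.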

Additional observations from a re-analysis of the deposited data

How the results depend on the processing

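The A9G share stayed between 6.04% and 6.40% under the settings tried, mice 1 and 3 averaged as 1 replicate included. Of the values recomputed under alternative settings, 122 kept within 1 SD or kept their sign and side of 0.05, 10 moved and 15 reversed. Of those under settings added after seeing the data, 4 kept and 1 reversed. Sign-flip tests over mice could not pass 0.05 under any setting, so for their values only a turn of sign or a value of 0 could count as a change. With alleles of at least 2 reads, A-to-G minus the other changes at the 7 adenines became 2.04e-05 points, other A-to-G on A9G reads minus other reads -0.0500 points, C-to-T likewise -0.0295 points, glycine 0.0144%, other residues 0.0618%, silent changes -0.136 points (lowest adjusted Fisher's exact p = 0.0418) and missense changes -0.376 points, new stop codons -0.0828 points, deletions at the nick 0% and elsewhere 0.0103%. With at least 10 reads, C6T minus the other cytosines became 0 points, glycine 0%, other residues 0.0376%, silent changes -0.126, missense changes -0.356 and new stop codons -0.0721 points, the PAM side minus the protospacer -3.83e-06 points, and deletions 0% at the nick and elsewhere. Any change at cytosine 6 gave 9.98e-04 points in place of C-to-T, the PAM side minus the protospacer was -0.0064 points and the protospacer minus the far side -0.0014 points without G-to-T and C-to-A, deletions of at least 2 bases away from the nick were 0.0134%, and the 7 adenines without adenine 1 gave 0.0055 points. Leaving out each mouse in turn, the differences ranged from -0.0086 to 0.0211 points for other A-to-G on A9G reads, from -0.0049 to 0.0014 for C6T, from 0.0038 to 0.0551 for C-to-T on A9G reads, from -0.0152 to 0.0610 for silent changes and from -7.52e-04 to 7.06e-04 for the PAM side minus the protospacer. The causes were not tested. Minimum allele sizes by construction drop second changes on the rarer A9G reads first, and how much this moved the values was not measured. No paired analysis was possible because there is a single group. A change on no read can still be at about 0.007%, and PCR duplicates cannot be recognised.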

Other observations

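Over the 10 guide-strand cytosines of the window, C-to-T averaged 0.0064%, 0.0085% and 0.0123% per cytosine in mice 1, 2 and 3. The cytosine directly before the protospacer, number -1, read T on 1, 3 and 13 reads, and C6T on 1, 1 and 7. C-to-A over the same cytosines ran 0.0598%, 0.0497% and 0.0539%. C-to-T at cytosines 3 (4, 2 and 3 reads), 8 (8, 4 and 5) and 30 (3, 3 and 0) was not highest in mouse 3. By share of reads the same held at cytosines -2 (3, 9 and 5 reads) and 28 (0, 5 and 5). These positions were singled out after their values were seen, and no test was made.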
